A study of Homo sapiens with 10 samples.

Results

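OVCAR-3 cells, an established human ovarian adenocarcinoma line, were compared after 3 days (Day3) and after 24 hours (Day1) of immobilization in silica gel, a porous mineral matrix in which cells are encased. The comparison rests on 4 of the 10 RNA-seq libraries of the study, 2 biological replicates for each time. It asks which of the early stress changes had faded by Day3 and which had grown. The 2 Control libraries from standard culture give the level without gel. Extracted cells had recovered for 2 weeks after 3 days in gel, and Treated cells for 2 weeks after 24 hours in 0.5 uM cisplatin. The libraries of these remaining groups entered the fit only through the choice of genes tested and the shared estimate of the spread. All groups are the same line in medium with fetal bovine serum, and the labels name no change of genotype.

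A cell that senses a shortage of amino acids, misfolded protein or other stress slows translation and makes more of the transcription factor ATF4, which raises genes for amino-acid synthesis and uptake and, with its partners ATF3 and CHOP, genes of growth arrest and death. NF-kB and the AP-1 factors drive chemokines and immediate-early genes in injured epithelial and carcinoma cells. BMP ligands act through SMAD proteins on the ID genes, which encode inhibitors of helix-loop-helix transcription factors. Mitochondrial DNA encodes core subunits of the respiratory chain, transcribed inside the organelle.

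Values are TPM (transcript shares corrected for transcript length and scaled to a fixed total), given for replicate 1 and then replicate 2. Differences are Day3 minus Day1 on log2(TPM + 1) with their standard error, which understates the ratio of low TPM. A gene was called at a limma adjusted p under 0.05. The files give no read counts, so depth is unknown. Between 13896 and 14173 genes reached 1 TPM in each of the 10 libraries, and the correlation of the 2 replicates across genes was 0.991 in Day3, 0.983 in Day1 and 0.988 in Control. None of the 13 ovarian carcinoma identity genes tested was called between Day3 and Day1. PAX8, a lineage factor of these tumours, had 432 and 437 TPM in Day3, 323 and 401 TPM in Day1 and 416 and 500.5 TPM in Control. Markers of other cell types stayed low: the 14 immune markers summed to 4.93 to 6.84 TPM in Day3, 5.51 to 5.55 TPM in Day1 and 6.17 to 8.63 TPM in Control, and the T-cell genes CD3D and CD3E were listed at 0 in these 6 libraries. Only 5 of 14 immune, 3 of 10 fibroblast and 1 of 8 endothelial markers had enough TPM to be tested. None of those tested was called between Day3 and Day1.

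The Day1 libraries differed from each other more than the Day3 libraries did. Mitochondrially encoded mRNAs made up 5.97% and 7.61% of all TPM in Day3, 2.29% and 3.92% in Day1, and 16.7% and 15.8% in Control. Small RNA genes took 1.18% and 0.970% in Day3, 1.24% and 0.196% in Day1, and 0.329% and 0.361% in Control. Most of the Day3 share was a single gene, RNU6ATAC, at 10002 and 7597 TPM, which was listed at 0 in Day1 and Control, and in a table without counts a 0 can stand for a failed estimate. Day1 replicate 1 stood above Day1 replicate 2 in 209 of the 256 genes that fell from Day1 to Day3, against 60.4% of all tested genes. Whether these differences between libraries bear on the calls was not tested.

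Of 15167 genes tested, 356 (2.35%) were called between Day3 and Day1. Of these, 256 (1.69%) were lower on Day3 and 100 (0.659%) were higher. A change of at least 2-fold was seen in 85 of the falls and 29 of the rises. The median difference over all tested genes was -0.06. Set side by side, Day1 against Control called 3132 genes (20.7%), 2180 up (14.4%) and 952 down (6.28%), and Day3 against Control called 1489 (9.82%), 786 up (5.18%) and 703 down (4.64%). The 3 comparisons share libraries, so no overlap of their calls is given. In bulk RNA, fewer cells that express a gene and less of its RNA per cell cannot be told apart. The count is sensitive to single libraries: 12 genes were called without Day3 replicate 1, 15 without Day3 replicate 2, 37 without Day1 replicate 1 and 837 without Day1 replicate 2. The genes called in all 4 of these fits were CALCB, CHAC1, CXCL8, DDIT3, DLX2, DUSP10 and RNU6ATAC, 7 in all, of which RNU6ATAC rests on values listed at 0.

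**Figure D1:**
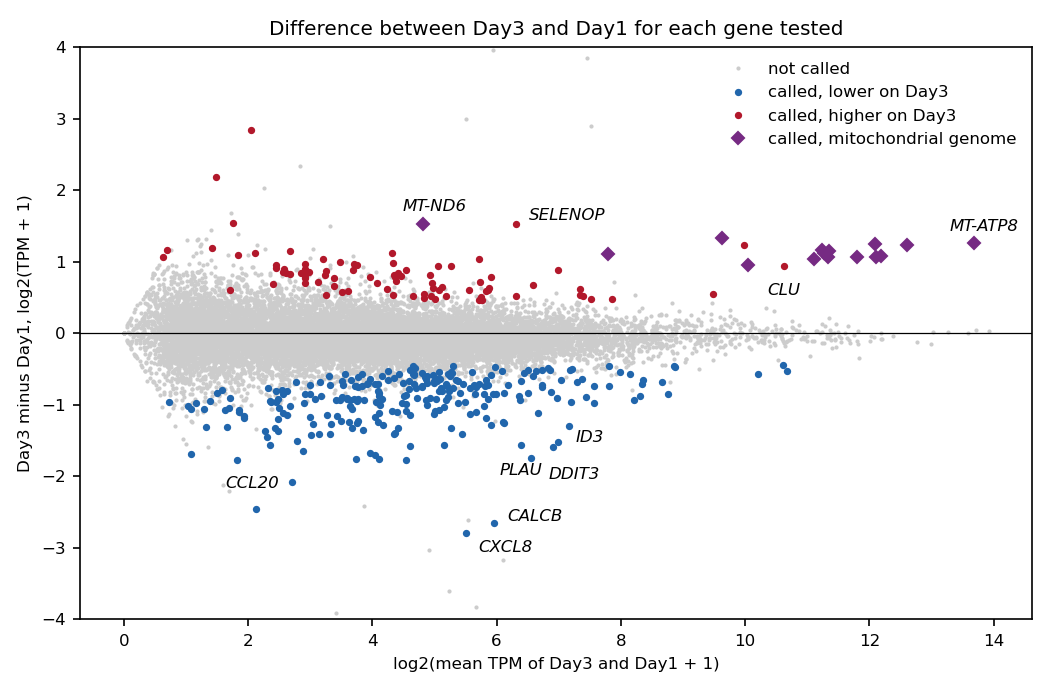
Each point is 1 of 15161 tested genes, with the log2 of its mean TPM over the Day3 and Day1 libraries plus 1 on the horizontal axis and its Day3 minus Day1 difference on log2(TPM + 1) on the vertical axis. 6 genes with a difference beyond 4 log2 units, 2 of them called, are not drawn. The called falls (blue) outnumber the called rises of nuclear genes (red), and the called genes of the mitochondrial genome (purple diamonds) lie mostly at the right, at high TPM.

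By list median, the largest falls were those of ATF4 targets, inflammatory cytokines, calcitonin-family peptides and TGF-beta and BMP targets, and the largest rise was that of mitochondrially encoded mRNAs. In the plot of list medians, both Day3 libraries lay below both Day1 libraries for the ATF4, cytokine, immediate-early, MAP kinase and TGF-beta and BMP lists, and above them for the mitochondrial mRNAs. The order alone does not set the falling lists apart, since other lists, such as hypoxia, p53 and interferon, shared it. The median over all tested genes did so too, at 0.08 and 0.05 in Day3 and 0.16 and 0.09 in Day1, relative to Control.

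**Figure D2:**
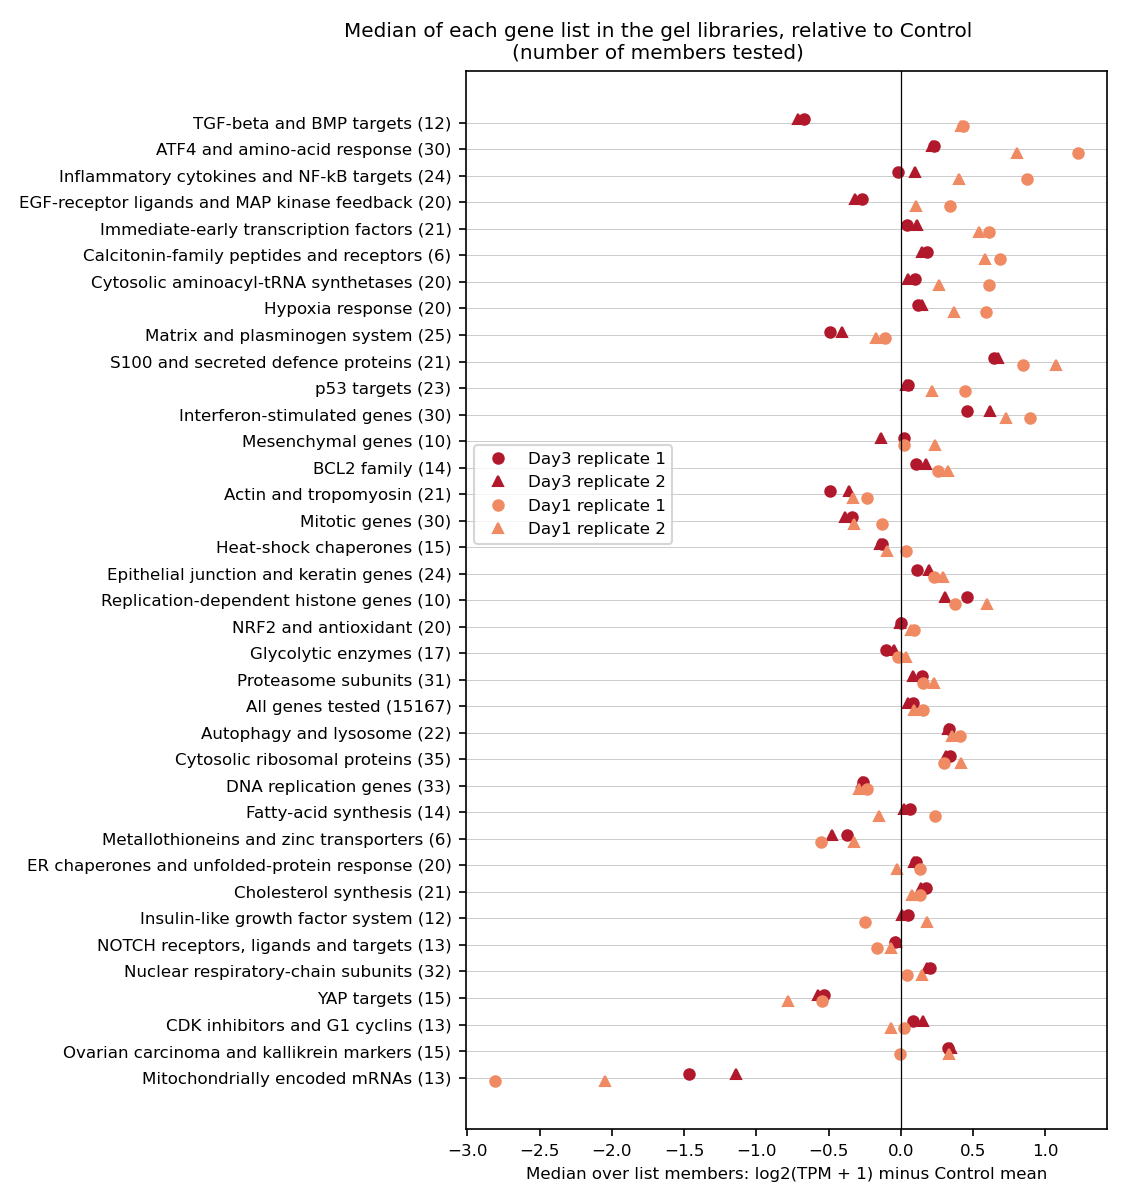
For each gene list, with the number of members tested in brackets, the horizontal axis gives the median over members of log2(TPM + 1) minus the Control mean, for the 2 Day3 libraries (dark red) and the 2 Day1 libraries (orange), with circles for replicate 1 and triangles for replicate 2. Lists are ordered by the Day3 minus Day1 difference of these medians. The TGF-beta and BMP list is at -0.67 and -0.71 in Day3 and at 0.43 and 0.42 in Day1, and the mitochondrial list is at -1.47 and -1.14 in Day3 and at -2.81 and -2.05 in Day1.

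The ATF4 and amino-acid response faded widely. Of 30 members tested, 19 fell and none rose between Day1 and Day3, with a median difference of -0.80. Against Control the same list had 26 members up and none down on Day1, and 7 up and 1 down on Day3. DDIT3, which encodes CHOP, a factor tied to stress-induced death, had 40.8 and 42.8 TPM in Day3 and 171 and 119 TPM in Day1, with 23.7 and 25.5 TPM in Control (-1.75 ± 0.17, adjusted p = 0.00355). Both Day3 libraries lay far below both Day1 libraries and still above both Control libraries. ATF3, a stress-induced repressor and partner of AP-1, stood at 56.7 and 59.9 TPM in Day3 against 219 and 143 TPM in Day1 (-1.59 ± 0.20, adjusted p = 0.00740). With 13.6 and 14.1 TPM in Control, ATF3 remained called above Control on Day3 (log2 difference from Control 2.00, adjusted p = 0.000705).

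Other members of the list fell and were not called against Control on Day3. CHAC1, an enzyme that breaks down glutathione, measured 21.1 and 20.4 TPM in Day3, 58.5 and 49.2 TPM in Day1 and 20.7 and 21.6 TPM in Control (-1.33 ± 0.13, adjusted p = 0.00298). TRIB3, a pseudokinase that restrains AKT signalling, measured 21.1 and 23.97 TPM in Day3, 73.1 and 51.7 TPM in Day1 and 16.8 and 16.3 TPM in Control (-1.41 ± 0.15, adjusted p = 0.00364). In neither gene did the Day3 and Day1 libraries overlap, which held for all 356 genes called between Day3 and Day1 and so adds nothing to these calls. Against Control on Day3, CHAC1 had an adjusted p = 0.925 and TRIB3 an adjusted p = 0.111. The mTORC1 inhibitors DDIT4 (37.2 and 41.5 TPM in Day3, 111 and 80.7 TPM in Day1, 21.3 and 20.2 TPM in Control) and SESN2 (8.96 and 9.10 TPM in Day3, 26.4 and 19.6 TPM in Day1 and 5.54 and 5.28 TPM in Control) fell by 1.25 each on the log2 scale and were both still called above Control. PPP1R15A, whose product GADD34 directs removal of the phosphate that slows translation, had 32.2 and 34.1 TPM in Day3 and 94.003 and 62.6 TPM in Day1, against 23.97 and 23.99 TPM in Control (-1.19 ± 0.17, adjusted p = 0.0132).

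Enzymes and transporters of amino acids formed a second tier of falls. ASNS, asparagine synthetase, measured 128 and 125 TPM in Day3 and 294 and 210.2 TPM in Day1, with 100.1 and 90.2 TPM in Control (-0.97 ± 0.15, adjusted p = 0.0150). Cystathionine gamma-lyase (CTH), phosphoserine phosphatase (PSPH), the one-carbon enzyme MTHFD2 and the cystine carrier SLC7A11 fell by 1.16, 0.77, 0.73 and 0.73 on the log2 scale, and none of them was called between Day3 and Control. SLC7A5, the large neutral amino-acid carrier, took another course: 85.4 and 81.4 TPM in Day3 lay below both 171 and 130.1 TPM in Day1 and 169 and 161 TPM in Control, while Day1 was not called against Control (adjusted p = 0.447). ATF4 mRNA itself was 460.2 and 439 TPM in Day3 and 638 and 556 TPM in Day1 and missed the threshold (-0.41 ± 0.10, adjusted p = 0.0780). NUPR1, a small stress-induced chromatin protein, was the member with the highest difference, with 3.96 and 4.30 TPM in Day3, 4.70 and 3.11 TPM in Day1 and 0.978 and 1.76 TPM in Control, and was called above Control at both times (adjusted p = 0.0125 on Day1, adjusted p = 0.0172 on Day3). Among the cytosolic aminoacyl-tRNA synthetases, which load tRNAs and are partly ATF4 targets, 1 of 20 fell (TARS, -0.69 ± 0.15, adjusted p = 0.0451). On Day1, 9 were above Control and 1 below, and on Day3 none was above and 1 was below. The 3 rescalings tried were by median of ratios, by the sum of nuclear protein-coding genes, and after removal of mitochondrial genes. In that order the synthetase list had 5, 6 and 0 falls, and on Day1 6, 6 and 4 members above Control and 1, 3 and 2 below it. Leaving out 1 of the 4 libraries moved the ATF4 list's median only between -0.99 and -0.65, but its falls numbered 2 and 3 without a Day3 library, 6 without Day1 replicate 1 and 25 without Day1 replicate 2.

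**Figure D3:**
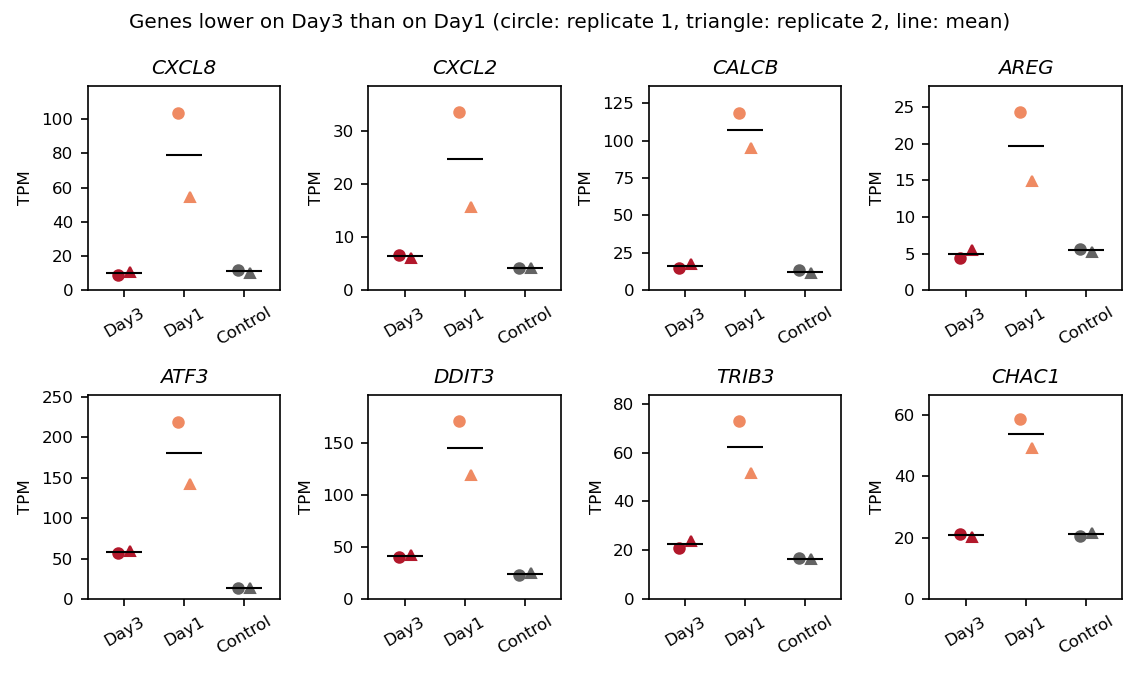
TPM of 8 genes in each library on axes that start at 0, with Day3, Day1 and Control from left to right, circles for replicate 1, triangles for replicate 2 and a line at the mean. The genes were drawn because they were called lower on Day3, and in every panel, as in every called fall, both Day1 libraries lie above both Day3 libraries. CXCL8, CALCB, AREG and CHAC1 are close to Control on Day3 while ATF3 and DDIT3 remain above it.

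The promoters of 3 falling ATF4 targets are shown because each holds a match to the core of the composite element that C/EBP and ATF proteins bind. Each sequence is the 250 bases before a RefSeq start in GRCh38.p14, read 5′ to 3′ on the gene's strand, with matches to TGATGNAA on either strand in capitals. RefSeq lists 2 starts for ATF3 and for ASNS, and the window with a match is given.
ATF3, chr1:212565157-212565406, plus strand: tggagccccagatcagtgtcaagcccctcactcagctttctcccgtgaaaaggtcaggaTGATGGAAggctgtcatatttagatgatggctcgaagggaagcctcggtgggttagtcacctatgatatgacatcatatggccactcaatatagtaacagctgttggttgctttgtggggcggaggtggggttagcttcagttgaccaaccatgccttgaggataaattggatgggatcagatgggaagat
CHAC1, chr15:40953221-40953470, plus strand: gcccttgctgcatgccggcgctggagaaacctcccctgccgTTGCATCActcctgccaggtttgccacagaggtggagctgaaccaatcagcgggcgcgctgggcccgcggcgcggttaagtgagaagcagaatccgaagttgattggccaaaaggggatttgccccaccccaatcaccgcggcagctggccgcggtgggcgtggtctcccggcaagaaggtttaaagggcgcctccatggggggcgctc
ASNS, chr7:97872409-97872658, minus strand: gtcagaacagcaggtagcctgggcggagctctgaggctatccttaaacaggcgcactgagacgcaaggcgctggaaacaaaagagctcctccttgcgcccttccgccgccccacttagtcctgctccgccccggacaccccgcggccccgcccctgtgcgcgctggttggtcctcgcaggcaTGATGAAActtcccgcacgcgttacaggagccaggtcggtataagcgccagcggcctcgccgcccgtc
The matches begin at position -191 in ATF3, -209 in CHAC1 (on the opposite strand) and -68 in ASNS, counted back from the base before the start. TGATGNAA occurred in 6 of the 26 list members matched to RefSeq (ASNS, ATF3, CEBPG, CHAC1, HERPUD1 and JDP2) and in 3.14% of all 35116 windows, where a gene with several starts has several windows. The kappa-B-like motif GGAANTTCC occurred in none of the 26. A match describes letters in the window and not a bound site. The list was drawn up around ATF4, so its motif counts are no test of the group.

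Inflammatory cytokines and NF-kB targets fell on a similar scale. Of 24 members tested, 14 fell and none rose, all 24 differences were negative, and the median was -0.70. On Day1, 12 were above Control and 1 below, and on Day3 none was above and 3 were below. CXCL8, the neutrophil chemokine interleukin-8, had 9.17 and 10.9 TPM in Day3, against 104 and 54.6 TPM in Day1 and 12.1 and 10.3 TPM in Control. That difference was the largest fall among named genes (-2.80 ± 0.25, adjusted p = 0.00298, 95% interval -3.36 to -2.24), and CXCL8 on Day3 was not called against Control (adjusted p = 0.758). CXCL2 measured 6.74 and 6.08 TPM in Day3 and 33.6 and 15.8 TPM in Day1, with 4.24 and 4.29 TPM in Control (-1.70 ± 0.26, adjusted p = 0.0142). Its neighbours CXCL3 (3.92 and 3.27 TPM in Day3, 16.9 and 7.30 TPM in Day1, adjusted p = 0.0429) and CXCL1 (57.5 and 68.2 TPM in Day3, 143 and 89.7 TPM in Day1, adjusted p = 0.0451) fell as well. CXCL1, CXCL2 and CXCL3 are close copies of one another, so their reads may have been divided between them. CCL20, which attracts CCR6-bearing lymphocytes, was at 1.40 and 1.37 TPM in Day3, 13.3 and 6.16 TPM in Day1 and 3.00 and 1.66 TPM in Control (-2.08 ± 0.32, adjusted p = 0.0140).

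These 4 chemokine genes lie in the CXC cluster on chromosome 4 (CXCL8 at 73740506 to 73743716 and CXCL2 at 74097035 to 74099293 in GRCh38), and their promoters are shown because each carries a kappa-B-like sequence near the start. The 150 bases before the RefSeq start are given on the gene's strand, with matches to GGAANTTCC, which reads the same on both strands, in capitals.
CXCL8, chr4:73740419-73740568, plus strand: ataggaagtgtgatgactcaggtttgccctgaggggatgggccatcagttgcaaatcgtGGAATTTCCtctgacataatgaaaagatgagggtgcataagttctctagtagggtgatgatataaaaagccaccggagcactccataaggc
CXCL2, chr4:74099196-74099345, minus strand: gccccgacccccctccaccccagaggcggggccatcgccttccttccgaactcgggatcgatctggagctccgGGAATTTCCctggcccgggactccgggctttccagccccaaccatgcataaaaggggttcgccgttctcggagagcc
CXCL3, chr4:74038690-74038839, minus strand: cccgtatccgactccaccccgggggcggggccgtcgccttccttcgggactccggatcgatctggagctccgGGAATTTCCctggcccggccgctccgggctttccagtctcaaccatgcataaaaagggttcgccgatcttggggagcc
CXCL1, chr4:73869243-73869392, plus strand: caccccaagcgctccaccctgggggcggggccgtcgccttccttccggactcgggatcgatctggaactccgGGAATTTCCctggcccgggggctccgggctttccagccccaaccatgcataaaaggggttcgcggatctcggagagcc
The match begins at -91 in CXCL8, -77 in CXCL2 and -78 in CXCL3 and CXCL1, and its letters are GGAATTTCC in each. GGAANTTCC occurred in 11 of 24 matched members of the cytokine list (CXCL1, CXCL2, CXCL3, CXCL5, CXCL6, CXCL8, CXCL10, ICAM1, NFKB1, NFKBIA and NFKBIZ) and in 0.826% of all windows of 250 bases, and TGATGNAA in none of the 24. Of the 11, CXCL5 did not pass the filter on low TPM, 7 fell, and 3 were not called: NFKB1 (adjusted p = 0.0834), CXCL6 (0.774 and 1.17 TPM in Day3, 1.34 and 0.829 TPM in Day1) and CXCL10 (1.05 and 1.37 TPM in Day3, 1.98 and 1.83 TPM in Day1). The list was drawn up from cytokines and NF-kB targets, so its motif counts are no test of the group.

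Cytokines proper and regulators of NF-kB moved with the chemokines. TNF measured 2.04 and 1.92 TPM in Day3 and 9.09 and 4.50 TPM in Day1, with 4.17 and 2.69 TPM in Control (-1.32 ± 0.27, adjusted p = 0.0370). IL6 was at 2.25 and 1.16 TPM in Day3, 6.97 and 4.88 TPM in Day1 and 7.53 and 4.74 TPM in Control. IL6 was not called against Control on Day1 (adjusted p = 0.938) and was called below it on Day3 (log2 difference -1.40, adjusted p = 0.00949). LIF, a cytokine of the same receptor family, was called below Control on both days and lower on Day3 (11.9 and 11.1 TPM) than on Day1 (21.9 and 17.4 TPM), with 31.03 and 29.3 TPM in Control (-0.72 ± 0.16, adjusted p = 0.0459). The NF-kB inhibitors NFKBIA (-0.65), TNFAIP3 (-1.10) and NFKBIZ (-0.97), the subunits NFKB2 (-0.75) and RELB (-0.58), and the adhesion molecule ICAM1 (-0.74) fell too, on the log2 scale. Leaving out 1 of the 4 libraries left the list's median between -0.91 and -0.53, with 1 fall without either Day3 library, 2 without Day1 replicate 1 and 16 without Day1 replicate 2. With mitochondrial genes removed and the rest rescaled, 7 members fell at a median of -0.64.

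Among 21 immediate-early transcription factors, 7 fell and none rose, with a median difference of -0.51. On Day1 15 stood above Control and 1 below, and on Day3 none above and 3 below. Under the 3 rescalings the falls numbered 11, 11 and 6, and the members above Control on Day1 12, 9 and 9. FOSL1, the AP-1 subunit Fra-1, had 6.29 and 6.85 TPM in Day3, 33.2 and 18.3 TPM in Day1 and 4.14 and 4.08 TPM in Control (-1.77 ± 0.26, adjusted p = 0.0126). MAFF, a small MAF factor, fell by 1.36, KLF10, a TGF-beta-induced repressor, by 1.25, and ZFP36, which destabilizes cytokine mRNAs, by 0.74 on the log2 scale. IER3, a survival gene, passed below Control: 31.5 and 35.5 TPM in Day3, 97.7 and 70.5 TPM in Day1 and 55.1 and 56.2 TPM in Control (-1.29 ± 0.15, adjusted p = 0.00593, Day3 against Control adjusted p = 0.0192). EGR1 was not called, with 8.07 and 9.19 TPM in Day3, 9.28 and 9.10 TPM in Day1 and 18.9 and 19.4 TPM in Control, and was called below Control at both times. Its Day3 minus Day1 difference was -0.08 (95% interval -0.39 to 0.23).

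Of 20 EGF-receptor ligands and MAP kinase feedback genes, 5 fell and none rose (median -0.51). AREG, the EGF-receptor ligand amphiregulin, had 4.35 and 5.55 TPM in Day3, 24.3 and 14.9 TPM in Day1 and 5.62 and 5.25 TPM in Control (-1.76 ± 0.23, adjusted p = 0.00889). The MAP kinase phosphatases DUSP1 (11.04 and 10.2 TPM in Day3, 24.05 and 20.8 TPM in Day1), DUSP4 (1.29 and 1.38 TPM in Day3, 4.33 and 3.53 TPM in Day1) and DUSP5 (7.86 and 7.15 TPM in Day3, 17.3 and 13.4 TPM in Day1) each fell, as did the ETS factor ETV4. All 3 phosphatases were called above Control on Day1 and not called on Day3, where their TPM lay below both Control libraries. Of the 20 list members, 5 were above Control on Day1 and 1 below. Under the 3 rescalings 4, 4 and 2 were above Control on Day1 and 4 below in each, and the falls from Day1 to Day3 numbered 5, 5 and 4. Neither the immediate-early nor the MAP kinase list held a fall without either Day3 library, and without Day1 replicate 1 they held 3 and 1, while their medians stayed between -0.70 and -0.37 and between -0.63 and -0.35.

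CALCB, which encodes the beta form of calcitonin gene-related peptide, a vasodilator peptide, had the smallest adjusted p among the named falls. It had 14.9 and 17.2 TPM in Day3, 119 and 94.8 TPM in Day1 and 13.3 and 11.6 TPM in Control (-2.65 ± 0.14, adjusted p = 4.05e-05), and was called whichever of the 4 libraries was left out. The Day3 libraries were not called against Control (adjusted p = 0.167). Its relatives adrenomedullin (ADM, 2.52 and 3.98 TPM in Day3, 8.51 and 6.55 TPM in Day1, 4.50 and 4.30 TPM in Control), ADM2 (2.63 and 2.66 TPM in Day3, 7.69 and 5.53 TPM in Day1 and 1.95 and 1.49 TPM in Control) and CALCA (0.667 and 0.359 TPM in Day3, 1.81 and 2.13 TPM in Day1 and 1.79 and 0.925 TPM in Control) fell as well, so that 4 of the 6 list members tested fell. Unlike CALCB, none of these relatives was called whichever of the 4 libraries was left out. The list's median stayed between -1.04 and -0.85 in those fits, and under the 3 rescalings 4, 4 and 3 members fell. CALCA at 14966668 to 14972354 on chromosome 11 lies within the annotated span of CALCB (14904997 to 15082342) on the opposite strand, and no strand setting is given in the sources used here, so reads of the pair may be mixed.

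Hypoxia, p53 and cell-death genes fell in smaller numbers. Of 20 hypoxia-response genes, 5 fell and 1 rose (median -0.27). VEGFA, the angiogenic growth factor, had 28.8 and 30.2 TPM in Day3, 63.3 and 54.5 TPM in Day1 and 29.4 and 30.3 TPM in Control (-0.97 ± 0.12, adjusted p = 0.00617), and the Day3 and Control libraries overlapped. BNIP3, a mitophagy receptor (42.1 and 36.3 TPM in Day3, 66.3 and 84.2 TPM in Day1, 27.99 and 26.8 TPM in Control), and the collagen prolyl hydroxylase P4HA1 (26.8 and 26.3 TPM in Day3, 45.1 and 43.1 TPM in Day1 and 16.9 and 18.6 TPM in Control) fell but stayed called above Control. EGLN3, an oxygen sensor that is itself a hypoxia target, went the other way, with 40.7 and 38.6 TPM in Day3, 24.9 and 26.6 TPM in Day1 and 50.1 and 41.6 TPM in Control (0.60 ± 0.12, adjusted p = 0.0320). The glucose carrier SLC2A1 was not called in any of the 3 comparisons.

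Of 23 p53 targets, 6 fell and none rose (median -0.25). CDKN1A, the cell-cycle inhibitor p21, had 9.84 and 10.7 TPM in Day3, 22.4 and 19.5 TPM in Day1 and 3.45 and 5.69 TPM in Control (-0.96 ± 0.19, adjusted p = 0.0320), and remained above Control on Day3 (adjusted p = 0.0103). The BH3-only death genes PMAIP1 (10.6 and 11.7 TPM in Day3, 34.5 and 24.97 TPM in Day1, 9.55 and 11.02 TPM in Control) and BBC3 (3.13 and 3.89 TPM in Day3, 7.32 and 6.40 TPM in Day1 and 1.83 and 2.39 TPM in Control) fell and were the 2 falls among 14 BCL2-family genes. SESN2, also counted with ATF4, GADD45A and the death receptor TNFRSF10B made up the rest, while MDM2, the p53 ubiquitin ligase, was not called (-0.23 ± 0.20, adjusted p = 0.605). PMAIP1 is also known as an ATF4 target. Without either Day3 library the hypoxia and p53 lists held 0 falls, and without Day1 replicate 1 they held 2 and 1.

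Proteases and matrix genes fell in part. In the matrix and plasminogen list 6 of 25 fell and none rose (median -0.26), but 0 fell without either Day3 library or without Day1 replicate 1. PLAU, urokinase, had 37.5 and 41.8 TPM in Day3, 165 and 86.6 TPM in Day1 and 74.8 and 57.4 TPM in Control (-1.57 ± 0.25, adjusted p = 0.0158), and its receptor PLAUR 6.14 and 8.61 TPM in Day3, 16.5 and 12.97 TPM in Day1 and 11.7 and 13.3 TPM in Control. The protease inhibitor SERPINE2 fell and stayed above Control, with 16.6 and 16.6 TPM in Day3, 66.9 and 38.8 TPM in Day1 and 9.39 and 7.30 TPM in Control (-1.56 ± 0.25, adjusted p = 0.0162). FN1, fibronectin, and LAMA5, a basement-membrane laminin chain, were called below Control at both times and were not called between Day3 and Day1 (FN1 -0.49 ± 0.12, adjusted p = 0.0780, LAMA5 0.32 ± 0.13, adjusted p = 0.239).

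Further genes with large falls belong to no list. LAMP3, a lysosomal membrane protein, had 8.54 and 9.39 TPM in Day3, 49.9 and 21.7 TPM in Day1 and 5.43 and 6.13 TPM in Control (-1.77 ± 0.31, adjusted p = 0.0222). The transcription factor MEF2C measured 2.36 and 2.81 TPM in Day3, 9.97 and 10.4 TPM in Day1 and 2.57 and 2.36 TPM in Control (-1.65 ± 0.17, adjusted p = 0.00355), and uridine phosphorylase UPP1 9.92 and 12.1 TPM in Day3, 45.5 and 26.3 TPM in Day1 and 12.01 and 10.4 TPM in Control (-1.57 ± 0.23, adjusted p = 0.0134). Each of the 3 was above Control on Day1 and not called against it on Day3.

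The list of TGF-beta and BMP targets fell and was mostly below Control on Day3. Of 12 TGF-beta and BMP targets tested, 8 fell and none rose between Day1 and Day3, with a median of -0.93, and all 12 differences were negative. Against Control 5 were up and 2 down on Day1, and none was up and 8 were down on Day3. ID3 had 65.9 and 63.2 TPM in Day3, 165 and 213 TPM in Day1 and 125 and 144 TPM in Control (-1.52 ± 0.16, adjusted p = 0.00355). ID1 measured 308 and 304 TPM in Day3, 488 and 624 TPM in Day1 and 472 and 543 TPM in Control (-0.85 ± 0.12, adjusted p = 0.0126). ID2 (201 and 203 TPM in Day3, 339 and 442 TPM in Day1, 316 and 344 TPM in Control) and ID4 (31.5 and 31.04 TPM in Day3, 64.2 and 72.8 TPM in Day1 and 47.9 and 51.1 TPM in Control) followed the same order, so that in all 4 ID genes both Day3 libraries were below both Control libraries.

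The inhibitory SMAD7 had 15.97 and 12.6 TPM in Day3, 34.8 and 30.4 TPM in Day1 and 22.1 and 22.9 TPM in Control (-1.14 ± 0.13, adjusted p = 0.00593), and SMAD9, a BMP receptor substrate, 0.894 and 0.758 TPM in Day3, 3.73 and 3.32 TPM in Day1 and 2.37 and 2.39 TPM in Control. Both were called below Control on Day3. TGFBI and PMEPA1, which respond to TGF-beta itself, also fell but were not called below Control on Day3: PMEPA1 had 34.1 and 35.5 TPM in Day3, 59.6 and 68.3 TPM in Day1 and 20.99 and 28.3 TPM in Control. In this list Day1 replicate 1 was the lower Day1 library for ID1 to ID4 and PMEPA1, opposite to its place in most falls. Leaving out each of the 4 libraries left the median between -1.04 and -0.91, with 2 falls without Day3 replicate 1, 0 without Day3 replicate 2, 5 without Day1 replicate 1 and 9 without Day1 replicate 2. Outside the list, GATA2, a zinc-finger transcription factor (1.58 and 1.49 TPM in Day3, 7.98 and 5.33 TPM in Day1, 6.62 and 6.44 TPM in Control, adjusted p = 0.00994), and SAMD11 (6.11 and 6.46 TPM in Day3, 18.5 and 27.1 TPM in Day1 and 15.7 and 23.6 TPM in Control, adjusted p = 0.0110) were not called against Control on Day1 and were below it on Day3.

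**Figure D4:**
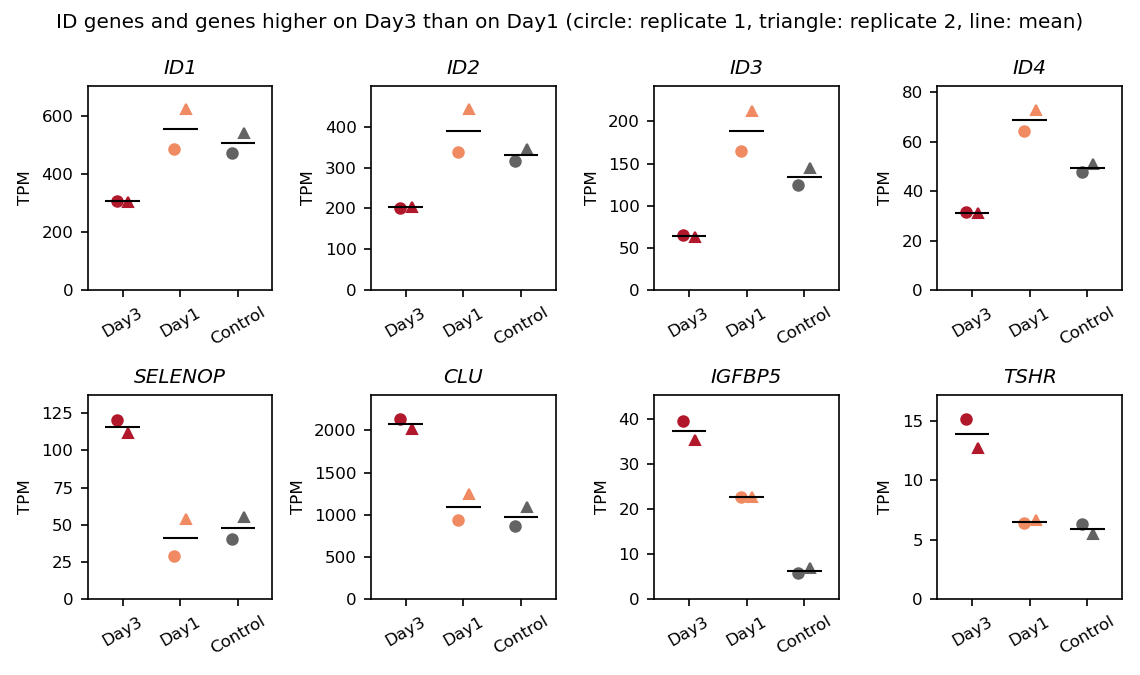
TPM of the 4 ID genes (upper row) and of SELENOP, CLU, IGFBP5 and TSHR (lower row) in each library on axes that start at 0, with Day3, Day1 and Control from left to right, circles for replicate 1, triangles for replicate 2 and a line at the mean. Both Day3 libraries lie below all Day1 and Control libraries for each ID gene and above all of them for each gene of the lower row.

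All 13 mitochondrially encoded mRNAs rose between Day1 and Day3, with a median difference of 1.15, after all 13 had been below Control on Day1. They also remained called below Control on Day3. Their summed TPM on Day3 was 2.19-fold that of Day1 and 41.8% of Control, while Day1 stood at 19.1% of Control. MT-CO1, a catalytic subunit of cytochrome oxidase, had 4072 and 5485 TPM in Day3, 1670.4 and 3054 TPM in Day1 and 9365 and 9334 TPM in Control (1.06 ± 0.23, adjusted p = 0.0451). MT-ND5, a proton-pumping subunit of complex I, had 962 and 1272 TPM in Day3, 327 and 595 TPM in Day1 and 2429 and 2525 TPM in Control (1.32 ± 0.24, adjusted p = 0.0233). MT-ND6, the 1 mRNA made from the light strand, was furthest from Control, with 39.2 and 42.5 TPM in Day3, 12.6 and 14.4 TPM in Day1 and 223 and 264 TPM in Control (1.53 ± 0.19, adjusted p = 0.00617). On Day3 it was -2.54 log2 units from Control, against a list median of -1.32.

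MT-ATP8 (16405 and 20501 TPM in Day3, 5969 and 9837 TPM in Day1) and MT-ATP6 (5300.1 and 6838 TPM in Day3, 1892 and 3429 TPM in Day1) overlap on the mitochondrial genome, at 8366 to 8572 and 8527 to 9207, and their reads cannot be told apart there. The mitochondrial ribosomal RNAs, outside the list, rose as well, with 279.6 and 325 TPM in Day3, 125 and 156 TPM in Day1 and 559 and 589 TPM in Control for MT-RNR1. None of 32 nuclear genes for respiratory-chain subunits was called, with 4 differences below 0 and a median of 0.09 (0.17, 0.16 and 0.15 under the 3 rescalings, with 1 rise under the first and second). Day1 replicate 2 was closer to Day3 than replicate 1 was. No mitochondrial mRNA was called without a Day3 library, 1 was called without Day1 replicate 1, and the median stayed between 0.76 and 1.53.

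**Figure D5:**
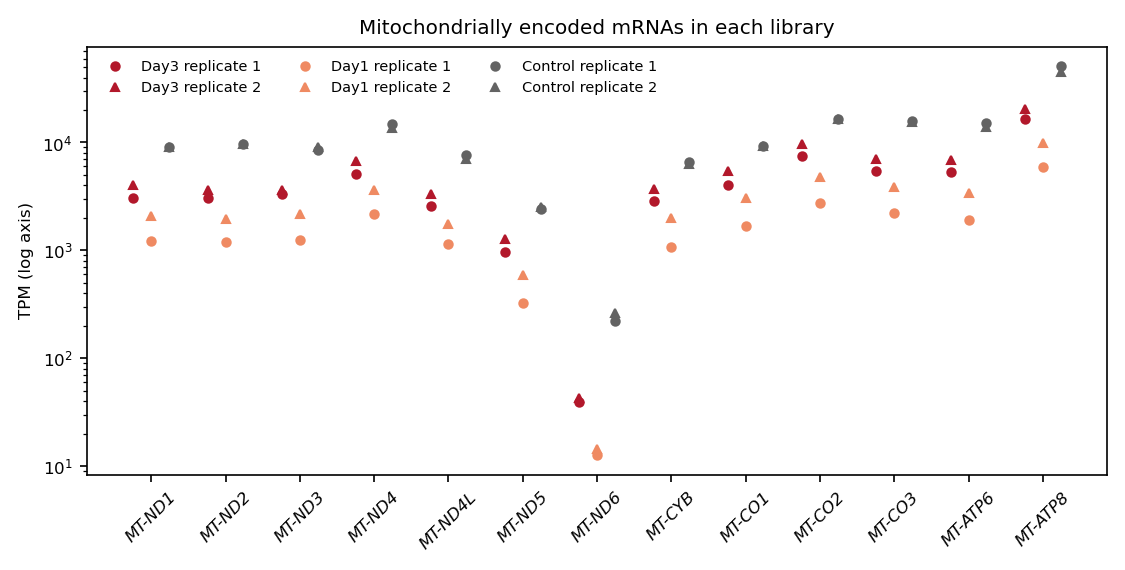
TPM on a log axis of the 13 mitochondrially encoded mRNAs in each library, with Day3 (dark red), Day1 (orange) and Control (grey) from left to right for each gene, circles for replicate 1 and triangles for replicate 2. For every gene both Day3 libraries lie between the Day1 and the Control libraries.

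Apart from 15 genes of the mitochondrial genome, 85 genes rose, among them antisense transcripts and MTATP6P1, a nuclear copy of mitochondrial sequence that can take mitochondrial reads. No protein-coding nuclear rise is among the genes named above as called whichever Day3 or Day1 library was left out. Among the 14 protein-coding nuclear genes with the largest rise, 11 of them named after their values were seen, most took 1 of 2 courses. In the first, the gene was not called against Control on Day1 and was above it on Day3. SELENOP, the secreted selenium carrier selenoprotein P, had 120.2 and 112 TPM in Day3, 28.99 and 53.6 TPM in Day1 and 40.3 and 55.2 TPM in Control (1.53 ± 0.25, adjusted p = 0.0182, Day3 against Control adjusted p = 0.0159). CLU, the extracellular chaperone clusterin, had 2136 and 2016 TPM in Day3, 941 and 1242 TPM in Day1 and 862 and 1092 TPM in Control (0.94 ± 0.14, adjusted p = 0.0142). TSHR, the thyrotropin receptor, measured 15.1 and 12.7 TPM in Day3, 6.38 and 6.63 TPM in Day1 and 6.34 and 5.47 TPM in Control (0.99 ± 0.18, adjusted p = 0.0266). MAL, a membrane-raft protein of apical transport, LRRN2 and GUCY1B3, a subunit of the nitric-oxide receptor guanylate cyclase, were called above Control on Day3 in the same way.

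In the second course, the gene was below Control on Day1 and not called against it on Day3. LBH, a transcription cofactor, had 67.95 and 70.3 TPM in Day3, 30.7 and 36.3 TPM in Day1 and 66.5 and 81.5 TPM in Control (1.03 ± 0.16, adjusted p = 0.0148), and KRT4, a keratin of wet stratified epithelia, 25.4 and 26.3 TPM in Day3, 8.06 and 15.9 TPM in Day1 and 35.96 and 37.9 TPM in Control (1.12 ± 0.23, adjusted p = 0.0393). CCDC146, IL12A, which encodes a subunit of interleukin-12, the matrix protein EFEMP1 and the axonemal gene DNAJB13 were likewise called below Control on Day1 and not on Day3. COL23A1, a transmembrane collagen, and the protease ADAMTS15 rose without being called against Control on either day. IGFBP5, which binds insulin-like growth factors, rose further from an early gain: 39.6 and 35.4 TPM in Day3, 22.6 and 22.8 TPM in Day1 and 5.83 and 6.89 TPM in Control (0.70 ± 0.13, adjusted p = 0.0305). It was the single call among 12 genes of the insulin-like growth factor system between Day3 and Day1. CTGF and MYL9, genes of tension and the actin cytoskeleton, rose partway back towards Control: CTGF had 60.3 and 63.8 TPM in Day3, 42.95 and 44.3 TPM in Day1 and 95.1 and 93.1 TPM in Control (0.50 ± 0.11, adjusted p = 0.0451, called in 0 of the 4 fits that leave out a Day3 or Day1 library), and MYL9 36.6 and 38.5 TPM in Day3, 18.7 and 23.4 TPM in Day1 and 54.5 and 52.3 TPM in Control (0.81 ± 0.13, adjusted p = 0.0158).

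Other early changes held few calls between Day3 and Day1. Of 30 interferon-stimulated genes, 23 were above Control on Day1 and 13 on Day3, and 1 (DDX58, the RNA sensor RIG-I) fell in between, with a median difference of -0.26. IFITM3, a membrane restriction factor, had 357 and 415 TPM in Day3, 354 and 386 TPM in Day1 and 197 and 195 TPM in Control, a difference of 0.06 (95% interval -0.20 to 0.32). IFIT1 (3.54 and 4.73 TPM in Day3, 12.4 and 6.29 TPM in Day1, 0.599 and 1.06 TPM in Control) was lower on Day3 without passing the test (-0.96 ± 0.26, adjusted p = 0.0982). Among 21 S100 and secreted defence proteins, 13 were above Control on Day1 and 12 on Day3, 3 fell in between (S100A2, S100A6 and S100A11), and the median difference was 0.00. No more than 1 of these falls was called with any of the 4 libraries left out. LCN2, an iron-sequestering lipocalin, had 61.1 and 76.4 TPM in Day3, 84.1 and 58.3 TPM in Day1 and 17.2 and 15.997 TPM in Control (95% interval of the difference -0.43 to 0.37). S100A8, a subunit of calprotectin, had 8.02 and 6.91 TPM in Day3, 4.14 and 4.84 TPM in Day1 and 0.791 and 0.196 TPM in Control, and S100A9, its partner, 13.3 and 17.4 TPM in Day3, 9.54 and 13.9 TPM in Day1 and 2.56 and 2.20 TPM in Control. Neither was called between Day3 and Day1 (S100A8 0.62 ± 0.21, adjusted p = 0.176, S100A9 0.37 ± 0.19, adjusted p = 0.345). WFDC2, the ovarian tumour marker HE4, had 1132 and 1207 TPM in Day3, 1017 and 1224 TPM in Day1 and 523 and 542 TPM in Control, with a difference of 0.07 (95% interval -0.15 to 0.29). VIM, vimentin, was called above Control on both days and not between them, at 11.7 and 11.5 TPM in Day3, 11.01 and 7.79 TPM in Day1 and 1.66 and 1.84 TPM in Control (0.30 ± 0.17, adjusted p = 0.423).

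Some proliferation genes were below Control on both days. Of 30 mitotic genes none was called between Day3 and Day1 (median -0.12), and 10 were below Control on each day (19, 22 and 15 on Day1 and 21, 24 and 16 on Day3 under the 3 rescalings). MKI67, the proliferation antigen Ki-67, had 40.1 and 32.2 TPM in Day3, 44.2 and 30.01 TPM in Day1 and 62.1 and 67.9 TPM in Control, a difference of -0.02 (95% interval -0.41 to 0.37). None of 33 DNA replication genes was called (median 0.02), with 9 below Control on Day1 and 6 on Day3 (18, 22 and 16 on Day1 and 13, 18 and 15 on Day3 under the 3 rescalings). Among 15 YAP targets, 8 were below Control on Day1 and 9 on Day3. ANKRD1, a stretch-responsive member, went on falling, with 10.5 and 9.25 TPM in Day3, 25.3 and 19.9 TPM in Day1 and 42.5 and 34.2 TPM in Control (-1.11 ± 0.18, adjusted p = 0.0169), AMOTL2 fell as well and CTGF rose. NEAT1, a nuclear-retained RNA of paraspeckles, had 22.5 and 18.5 TPM in Day3, 12.4 and 16.9 TPM in Day1 and 102 and 108 TPM in Control (0.47 ± 0.16, adjusted p = 0.180).

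No member was called between Day3 and Day1 among 35 cytosolic ribosomal proteins, 31 proteasome subunits, 15 heat-shock chaperones, 10 replication-dependent histone genes, 15 ovarian carcinoma and kallikrein markers, 10 mesenchymal genes or 6 metallothioneins and zinc transporters. With nuclear protein-coding genes rescaled alone, 3 mesenchymal genes fell, 2 ovarian and kallikrein markers rose, 1 heat-shock gene rose and 1 fell, and 1 histone gene fell, and median-of-ratios scaling gave 1 mesenchymal fall, 1 heat-shock fall and 1 marker rise. The most abundant members had small differences: HSPA8 differed by 0.21 (95% interval -0.03 to 0.46), HSP90AA1 by 0.01 (-0.30 to 0.31), the proteasome ATPase PSMC4 by -0.13 (-0.31 to 0.05), histone HIST1H1C by 0.10 (-0.18 to 0.37) and the metallothionein MT2A by 0.05 (-0.37 to 0.47). In the ribosomal list all differences lay between -0.14 and 0.10. It had 23 members above Control on Day1 and 13 on Day3. Under the 3 rescalings 10, 8 and 3 were above Control on Day1 and 14, 8 and 2 on Day3. The list's median difference from Control stayed positive, at 0.22, 0.15 and 0.14 on Day1 and 0.27, 0.18 and 0.18 on Day3. Some further lists held 1 or 2 calls each, beside 2.35% called among all genes tested. So few calls describe the genes named and not their lists. The LC3 gene MAP1LC3B (1 fall of 22 autophagy genes), lactate dehydrogenase LDHA (1 of 17 glycolytic enzymes), the desaturase FADS1 (1 of 14 fatty-acid genes), HES1 (1 of 13 NOTCH genes) and the tight-junction genes CLDN1 and OCLN (2 of 24 epithelial genes) fell. The call of FADS1 was lost under all 3 rescalings. With mitochondrial genes removed, the calls of LDHA and HES1 were lost too, and 1 epithelial gene fell. CLDN1 was the largest of these, with 77.8 and 82.2 TPM in Day3, 250.1 and 158 TPM in Day1 and 153 and 135 TPM in Control (-1.31 ± 0.18, adjusted p = 0.0113). Among 20 endoplasmic-reticulum chaperone and unfolded-protein genes, the sensor ATF6 fell (22.3 and 20.7 TPM in Day3, 34.5 and 29.97 TPM in Day1) and calreticulin, CALR, rose (849 and 848 TPM in Day3, 538 and 627 TPM in Day1). Neither was called against Control on Day3. Under the 3 rescalings the list held 4, 5 and 2 rises and 0, 1 and 0 falls. The fall of ATF6 was thus not called after median-of-ratios scaling or with mitochondrial genes removed. Against Control, 5 members were above and 5 below on Day1, and 1 above and 0 below on Day3. The list summed to 3764.6 to 3764.8 TPM in Day1, 4422 to 4460 TPM in Day3 and 4396 to 4472 TPM in Control.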

How the data were processed

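The deposited values are TPM for each gene in each library. Per the submitters' processing notes, the authors used Trimmomatic, STAR and Cufflinks with GRCh38. Neither tool versions nor a strand setting are stated in what was used here. Values of repeated identifiers were combined, so that 58313 gene entries gave 58222 genes, of which 57959 (99.55%) matched GENCODE 29, which supplied biotypes and positions. TPM are shares of a fixed total, so a change in abundant RNA moves the rest.

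The 15167 genes that reached 1 TPM in 2 or more of 10 libraries entered a single linear model of log2(TPM + 1) over 5 groups (limma 3.58.1, R 4.3.3, trended prior variance, 5 residual degrees of freedom). Tests were two-sided and adjusted by Benjamini-Hochberg across those genes. The script was tested on simulated data. Read counts were not used here and depth is unknown, so no counting-error interval is given.

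The 41 gene lists are described by counts and medians, without set tests. Members and lists were chosen with earlier results of these data known. By rule, the text names the 14 largest called rises and falls with non-overlapping groups and at least 5 TPM in Day3 or Day1, up to 4 called members of a list (the 2 most abundant where none was called) and 18 fixed genes. Others were chosen after their values were seen. Alternatives were a pseudocount of 0.1, no filter or 5 TPM, 3 rescalings, smaller fits, a replicate block, a 2-fold minimum and each library left out. Promoters are RefSeq's (GRCh38.p14). Some results are not reported here.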

Additional observations from a re-analysis of the deposited data

How the results depend on the processing

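All counts are of genes called at an adjusted p under 0.05. Between Day3 and Day1 the 356 calls became 89 with no filter, 554 after median-of-ratios scaling (220 rises and 334 falls), 591 for nuclear protein-coding genes rescaled alone (226 and 365), 193 in a fit of Control, Day1 and Day3, 5 in a fit of the 2 groups alone, which has 2 residual degrees of freedom, and 114 with a 2-fold minimum. Leaving out 1 library gave 12 (without Day3 replicate 1) to 837 (without Day1 replicate 2). The count stayed within 1.5 times with a pseudocount of 0.1 (355), a filter at 5 TPM (402) and mitochondrial genes removed (263, of which 97 were rises and 166 falls). Day1 against Control (3132) gave 1894 in the 2 groups alone, 461 with a 2-fold minimum and 965 to 4106 with 1 library left out. Day3 against Control (1489) gave 832 with no filter, 2585 in the 2 groups alone, 280 with a 2-fold minimum and 216 to 2254 with 1 library left out. The cause was not tested.

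Scaling changed the split of calls against Control: Day1 went from 2180 up and 952 down to 1542 and 1734 after median-of-ratios scaling, 1044 and 2006 for nuclear protein-coding genes, and 731 and 1799 without mitochondrial genes, and Day3 from 786 and 703 to 798 and 1186, 458 and 1445, and 291 and 1182. These scalings moved the median of all genes by -0.12, -0.19 and -0.19 in Day1 and by -0.06, -0.13 and -0.14 in Day3, but by no more than 0.06 between Day3 and Day1. No named call changed direction under an alternative in which the gene was tested. Of 85 named calls, 83 remained with a pseudocount of 0.1, 82 after median-of-ratios scaling, 17 with no filter, 52 in the fit of Control, Day1 and Day3, 1 in the fit of the 2 groups alone, 20 without Day1 replicate 1 and 5 without either Day3 library.

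With the replicate number as a block, 340 genes were called between Day3 and Day1 (89 rises and 251 falls), 3199 between Day1 and Control and 1409 between Day3 and Control. The calls of CALR, CTGF, FADS1 and S100A6 between Day3 and Day1 were lost. Same-numbered libraries of different groups did not deviate together (correlations -0.02 to 0.09), so the number pairs nothing. Depth is unknown and limits low TPM most.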

Other observations

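Clock and glucocorticoid-responsive genes were looked at after their values had been seen. Of 18 such genes tested, none rose and 6 fell between Day1 and Day3, against 0.659% and 1.69% of all tested genes. The genes were picked after falls among them had been seen, so these counts are no test of the group. Among those not called, CRY1 differed by -0.02. BHLHE41 alone had a positive difference, with 285 and 258 TPM in Day3 and 214 and 213 TPM in Day1 (0.34 ± 0.19, limma adjusted p = 0.381). PER1, a core repressor of the circadian clock, had 3.01 and 2.90 TPM in Day3, 5.72 and 6.20 TPM in Day1 and 3.09 and 3.85 TPM in Control (-0.81 ± 0.17, adjusted p = 0.0395, log2 difference Day3 minus Day1 with its standard error and limma adjusted p). NR1D1, the clock repressor REV-ERB alpha, had 5.97 and 6.26 TPM in Day3, 20.97 and 11.9 TPM in Day1 and 2.43 and 2.07 TPM in Control (-1.24 ± 0.22, adjusted p = 0.0233). BHLHE40, a clock and stress repressor, had 37.5 and 39.8 TPM in Day3, 57.3 and 56.6 TPM in Day1 and 34.3 and 34.9 TPM in Control (-0.55 ± 0.10, adjusted p = 0.0259). PER2, NOCT and TSC22D3 were the other falls. PER1 was called in 0 of the 4 fits that leave out a Day3 or Day1 library (adjusted p = 0.0688 to 0.234) and not after median-of-ratios scaling (adjusted p = 0.0598), and the other 5 only without Day1 replicate 2. The hour of harvest is not given in the sources used here, and its part in these differences was not tested.

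RNU6ATAC, a small nuclear RNA of the minor spliceosome on chromosome 9, had 10002 and 7597 TPM in the Day3 libraries and was listed at 0 in the other 8 libraries. In a table without counts a 0 can stand for a failed estimate, and no fold is given against it.

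DLX2, a homeobox factor, and DUSP10, a phosphatase of stress-activated kinases, are 2 of the 7 genes called whichever of the Day3 and Day1 libraries was left out, and belong to no list. DLX2 had 6.32 and 6.19 TPM in Day3, 18.7 and 15.9 TPM in Day1 and 12.6 and 14.8 TPM in Control (-1.33 ± 0.13, adjusted p = 0.00355). DUSP10 had 9.81 and 9.20 TPM in Day3, 23.7 and 25.6 TPM in Day1 and 10.1 and 11.5 TPM in Control (-1.29 ± 0.12, adjusted p = 0.00298). ATOH8, a helix-loop-helix factor that responds to BMP, was already called below Control on Day1 and was lower still on Day3. ATOH8 had 1.92 and 2.32 TPM in Day3, 7.34 and 6.77 TPM in Day1 and 10.98 and 9.86 TPM in Control (-1.37 ± 0.14, adjusted p = 0.00355).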
